A study of Mus musculus with 12 samples.

Results

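The genes described here are members of the TNF, interleukin-1 and NF-kB system, an inflammatory signaling pathway with its own brakes. They were picked as a named pathway group, by no threshold on a measured value, though with earlier results of these data known: Tnf, Tnfrsf1a, Tnfaip3, Il1b, Il1r1, Il1rn, Nfkbia, Nfkb1, Nfkb2 and Csf3. A gene was read from the probe sets whose only gene symbol in the array's annotation is that gene, and 8 of the 10 had such a probe set, 1 each, out of 19937 genes. Il1r1 and Nfkb1 were not analysed here. The study measured gene expression in cells that share the bone with a growing breast cancer metastasis. Endothelial cells, which line blood vessels, and osteoblasts, which build bone, came from long bones of female NOD SCID mice, were separated by sorting and were hybridised to 12 arrays, 3 for each of 4 groups. The groups are tumor-bearing and tumor-free endothelial cells and tumor-bearing and tumor-free osteoblasts, a cell being called by the mouse it came from.

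Tumor-bearing mice had received 200000 MDA-MB231 scp1833 cells, a subline of a human breast cancer line, into the heart about 2 weeks before, and tumor-free mice are labelled only as such. Cells of either kind were sorted as lacking GFP, CD45 and the marker named TR119. Endothelial cells were sorted as carrying SCA1 and CD31, and osteoblasts as carrying CD51 without SCA1 or CD31. All mice, tumor-free ones included, were of a strain that lacks mature T and B cells and keeps myeloid cells, so these values describe a host without adaptive immunity. No source used here gives the ages of the mice or says whether an array pools several mice. A p-value therefore measures the spread between these arrays, which may be technical.

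TNF and interleukin-1 beta are secreted by activated cells, above all by macrophages, and bind receptors on neighboring cells. Both signals reach a kinase complex that marks the inhibitor IkB-alpha for destruction, which frees NF-kB to enter the nucleus and switch on genes. Among the genes it switches on are its own inhibitors, IkB-alpha (Nfkbia) and A20 (Tnfaip3), so the pathway limits itself. In bone, TNF and interleukin-1 are known for promoting osteoclasts, the cells that resorb bone, and for restraining bone formation by osteoblasts, while endothelial cells answer them with adhesion molecules, chemokines and the neutrophil growth factor G-CSF (Csf3).

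The array values are deposited log2 expression values, so a difference of 1 is a 2-fold difference in signal. The sorted populations carried the markers of their labels. All 7 measured osteoblast markers were lower and all 8 endothelial markers higher in endothelial cells than in osteoblasts of tumor-bearing mice, past the threshold. In tumor-free mice 7 of 7 and 7 of 8 were, by the same test. The osteoblast arrays differed among themselves in markers of other cells. The mean log2 level of 10 monocyte and macrophage markers was 6.69, 6.36 and 4.84 in osteoblasts of tumor-bearing mice and 4.95, 7.91 and 7.70 in tumor-free ones, so it was high on replicates 1 and 2 of the tumor-bearing group and on replicates 2 and 3 of the tumor-free group. On endothelial arrays it lay between 5.27 and 5.51. On a summed scale the same markers reached 10.89 to 10.96 in tumor-bearing endothelial cells and 11.12 to 11.20 in tumor-free ones, against 8.49 to 10.77 in osteoblasts of tumor-bearing mice and 8.60 to 12.44 in tumor-free ones. The endothelial sums came mostly from Mrc1, a mannose receptor of macrophages that sinusoidal endothelium also carries, at 10.63 to 11.03. Lyz2, the lysozyme of myeloid cells, lay at 4.82 to 5.56 on all endothelial arrays. Ptprc, which encodes the sorting marker CD45, was measured at 7.03, 6.87 and 4.70 in osteoblasts of tumor-bearing mice. It was 4.92, 8.46 and 6.41 in tumor-free ones and lay between 4.53 and 5.24 on endothelial arrays. Replicates correlated least in osteoblasts of tumor-free mice, at 0.867 to 0.908, and at 0.946 to 0.969 in the other groups.

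Tumor-bearing mice and tumor-free mice were compared within each cell type to ask how the metastasis changes the bone cells around it. Tnfaip3 and Nfkbia, the feedback inhibitors, had higher means in tumor-bearing mice in both cell types, by 1.93- to 2.20-fold in endothelial cells and by 1.85- to 2.05-fold in osteoblasts. Neither passed the test, which was limma's moderated test at an adjusted p under 0.05 over 12430 genes. In endothelial cells 0 of 8 genes passed, against 0.0241% of all genes tested, and 3 of 8 had an unadjusted p under 0.05, against 6.93% of all genes. Csf3 was 1 of those 3 and entered the test only through endothelial cells of tumor-bearing mice, where it was high. The count of 3 is therefore a description. In osteoblasts 0 of 8 passed, against 4.59% of all genes tested, and 1 of 8 had an unadjusted p under 0.05, against 24.4%. The log2 difference was above 0 for 7 of 8 genes in endothelial cells, with a median of 0.53, where 46.1% of all genes lay above 0 with a median of -0.02. It was above 0 for 6 of 8 genes in osteoblasts, with a median of 0.57, where 49.9% of all genes lay above 0 with a median of 0.00. In bulk RNA of sorted cells, fewer cells of a type and less RNA per cell cannot be told apart.

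Between the cell types more of these genes passed the test. In tumor-bearing mice 3 of 8 genes passed the test between endothelial cells and osteoblasts, with Csf3 higher and Tnf and Il1rn lower in endothelial cells, against 14.9% of all genes tested. In tumor-free mice 2 of 8 passed, with Tnfrsf1a higher and Il1rn lower in endothelial cells, against 31.0% of all genes tested. In tumor-free mice the share of the 8 genes is near that of all genes and is no result about them. In tumor-bearing mice the count of 3 is a description too, since Tnf and Csf3 exceeded the median probe set on 5 arrays each and entered the test through the cell type or group where they were high.

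**Figure D1:**
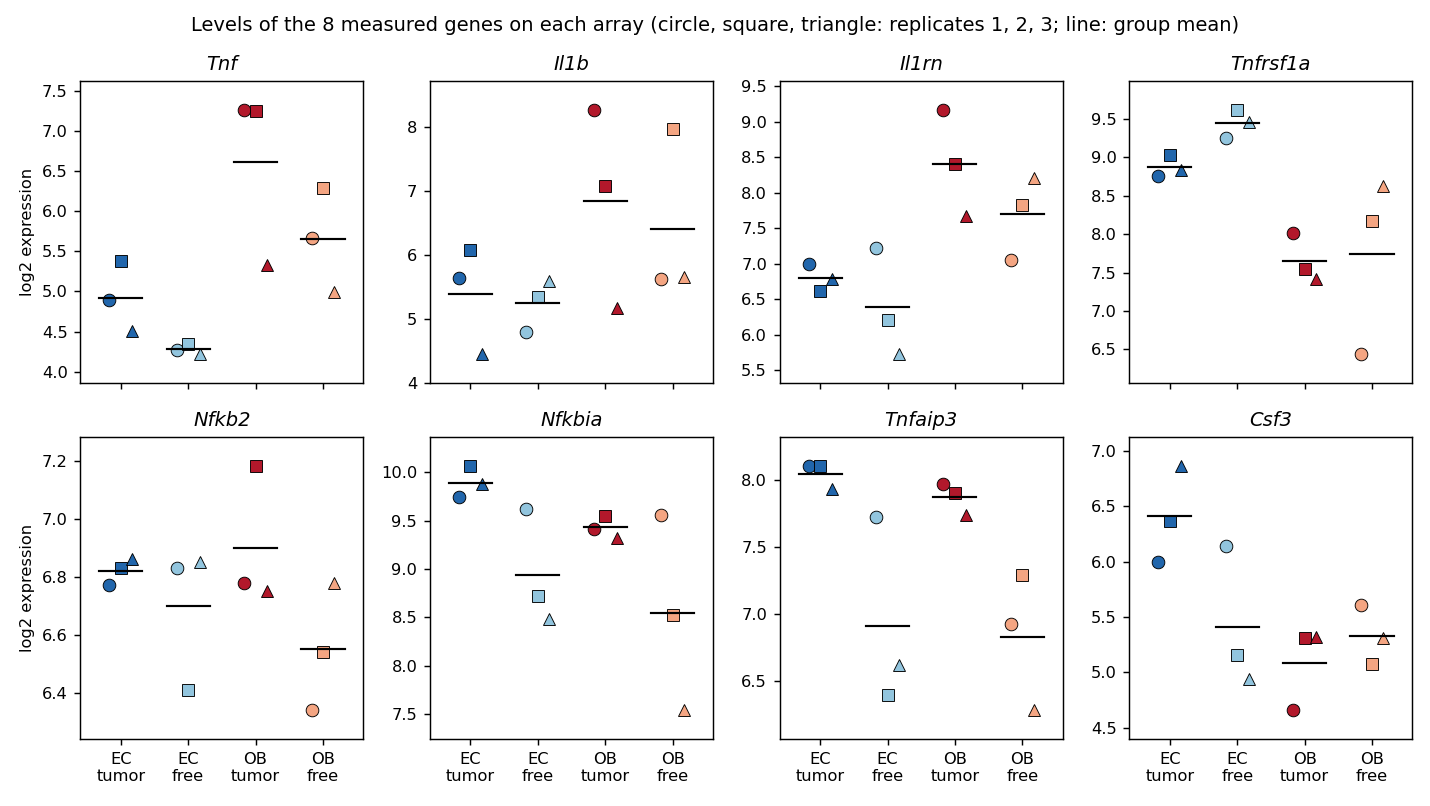
Log2 expression of the 8 measured genes on each of the 12 arrays, in endothelial cells (EC) and osteoblasts (OB) of tumor-bearing (tumor) and tumor-free (free) mice. Each point is 1 array and the line is the mean of 3; the vertical scale differs between panels. Tnfaip3 lay between 7.74 and 8.10 on all 6 tumor-bearing arrays and between 6.28 and 7.72 on the 6 tumor-free arrays.

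Tnf (probe set 10450501) encodes the ligand TNF. It was measured at 4.89, 5.38 and 4.51 in tumor-bearing endothelial cells and at 4.27, 4.34 and 4.22 in tumor-free ones. In osteoblasts it was 7.26, 7.25 and 5.33 with tumor and 5.67, 6.29 and 4.99 without. The 2 highest arrays were replicates 1 and 2 of osteoblasts of tumor-bearing mice, and the third of that group lay inside the tumor-free range. Tnf exceeded the median probe set, which lay at 5.21 to 5.41, on 5 of the 12 arrays, 1 endothelial and 4 osteoblast, so it passed the filter on low values through osteoblasts and its endothelial level is not shown to lie above background.

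The endothelial groups did not overlap for Tnf, as was so for 18.8% of all genes. Their means of 4.92 ± 0.44 in tumor-bearing and 4.28 ± 0.06 in tumor-free mice (SD, n = 3 each) differed by 0.65 ± 0.49 (SE; limma adjusted p = 0.94). In osteoblasts the means were 6.61 ± 1.11 in tumor-bearing and 5.65 ± 0.65 in tumor-free mice (SD, n = 3 each), a difference of 0.96 ± 0.49 (SE; limma adjusted p = 0.25). Without replicate 3 of osteoblasts of tumor-bearing mice that difference was 1.60 with a limma adjusted p of 0.0437. Tnf passed in no other fit that left out 1 array, and it was not called with all 12.

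Between the cell types, Tnf was lower in endothelial cells than in osteoblasts of tumor-bearing mice, by a log2 difference of the measured means of -1.69 ± 0.49 (SE; limma adjusted p = 0.0388), although 1 array of each group overlapped. In tumor-free mice the groups did not overlap, as for 47.3% of all genes, and the difference was -1.37 ± 0.49 (SE; limma adjusted p = 0.0528). The order of the 4 means was osteoblasts with tumor, osteoblasts without, endothelial cells with tumor and endothelial cells without, and neighbors in this order overlapped except the endothelial pair. The call in tumor-bearing mice held in 4 of 12 fits that left out 1 array, ending without osteoblast replicate 1 or 2 or any endothelial array, with adjusted p up to 0.155. It also ended with quantile normalization (limma adjusted p = 0.0583), no filter on low values (0.0571), only the 2 groups in the fit (0.0557) and without replicate 1 of both tumor-free groups (0.0531).

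Il1b (probe set 10487597) encodes interleukin-1 beta, the main secreted ligand of the interleukin-1 receptor. Its levels were 5.64, 6.08 and 4.45 in tumor-bearing endothelial cells and 4.79, 5.34 and 5.59 in tumor-free ones. In osteoblasts they were 8.26, 7.08 and 5.17 with tumor and 5.62, 7.97 and 5.65 without. Within each cell type the groups overlapped. The high arrays were osteoblast replicates 1 and 2 with tumor and replicate 2 without. The tumor differences were 0.15 ± 0.80 in endothelial cells (SE; limma adjusted p = 0.999) and 0.43 ± 0.80 in osteoblasts (SE; limma adjusted p = 0.769), so neither exceeded its error. Endothelial means lay below osteoblast means by 1.45 and 1.17 log2 units with and without tumor, but no call was made, at limma adjusted p = 0.302 with tumor and 0.271 without. All neighbors in the order of its 4 group means overlapped.

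Il1rn (probe set 10469816) encodes the interleukin-1 receptor antagonist, which occupies the receptor without signaling. It was measured at 6.99, 6.62 and 6.78 in tumor-bearing endothelial cells and at 7.22, 6.21 and 5.73 in tumor-free ones. Osteoblast arrays gave 9.16, 8.40 and 7.67 with tumor and 7.05, 7.82 and 8.21 without. Every osteoblast array with tumor lay above every endothelial array with tumor, while tumor-bearing and tumor-free arrays overlapped in both cell types. The tumor difference was 0.41 ± 0.44 in endothelial cells (SE; limma adjusted p = 0.999) and 0.72 ± 0.44 in osteoblasts (SE; limma adjusted p = 0.34).

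Il1rn was lower in endothelial cells than in osteoblasts in both kinds of mice. In tumor-bearing mice the means were 6.80 ± 0.18 in endothelial cells and 8.41 ± 0.74 in osteoblasts (SD, n = 3 each), 3.06-fold lower in endothelial cells (limma adjusted p = 0.0313), with groups that did not overlap, as for 35.9% of all genes. In tumor-free mice they were 6.39 ± 0.76 in endothelial cells and 7.70 ± 0.59 in osteoblasts (SD, n = 3 each), 2.47-fold lower in endothelial cells (limma adjusted p = 0.046), although 1 endothelial array reached into the osteoblast range. Leaving out 1 array in turn kept the call in 7 of 12 fits with tumor and in 4 of 12 without. With tumor it ended without osteoblast replicate 1, where the difference was -1.24 and the adjusted p was 0.111, and without osteoblast replicate 2 or any endothelial array of tumor-bearing mice. Without tumor it ended without osteoblast replicate 2 or 3 or endothelial replicate 2 or 3, and also without osteoblast replicate 2 or any endothelial array of tumor-bearing mice, which enter through the shared spread, with differences of -1.72 to -0.98. The call without tumor also ended with the replicate number as a block (limma adjusted p = 0.0585), median centering (0.0801) and only the 2 groups in the fit (0.099).

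The 3 arrays with the highest Tnf were among the 4 osteoblast arrays high in monocyte and macrophage markers, and so were the 3 arrays with the highest Il1b. The fourth, replicate 3 of osteoblasts of tumor-free mice, had 7.70 for those markers with 4.99 for Tnf and 5.65 for Il1b. On the 2 osteoblast arrays low in those markers, replicate 3 with tumor and replicate 1 without, Tnf was 5.33 and 5.67, Il1b was 5.17 and 5.62, and Il1rn was 7.67 and 7.05. Without those 4 arrays, a fit chosen after the data were seen, the tumor difference in osteoblasts was -0.34 for Tnf, -0.45 for Il1b and 0.62 for Il1rn. In the same fit the endothelial minus osteoblast difference with tumor was -0.41 for Tnf (limma adjusted p = 0.436) and -0.87 for Il1rn (limma adjusted p = 0.299). In tumor-free mice it was -1.40 for Tnf (limma adjusted p = 0.0119) and -0.66 for Il1rn (limma adjusted p = 0.331). Each osteoblast group then holds 1 array and the spread comes from endothelial arrays alone.

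Neutrophil markers ran alike, with mean log2 levels of 6.12, 5.95 and 4.91 in osteoblasts of tumor-bearing mice and 5.32, 7.12 and 6.75 in tumor-free ones, against 4.74 to 5.73 on endothelial arrays. On a summed scale they reached 9.04 to 10.23 in endothelial cells of tumor-bearing mice, 8.39 to 10.00 in tumor-free ones, 8.83 to 10.67 in osteoblasts of tumor-bearing mice and 9.87 to 12.11 in tumor-free ones. Between tumor-bearing and tumor-free osteoblasts, 0 of 8 monocyte and macrophage markers and 0 of 6 neutrophil markers tested passed, against 4.59% of all genes. At an unadjusted limma p under 0.05 was 1 of each, against 24.4% of all genes. In tumor-free mice 7 of 8 and 6 of 6 had lower means in endothelial cells than in osteoblasts. Of these, 4 and 2 passed the test as lower, against 12.7% of all genes. The part of these markers in the levels of Tnf, Il1b and Il1rn was not tested.

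**Figure D2:**
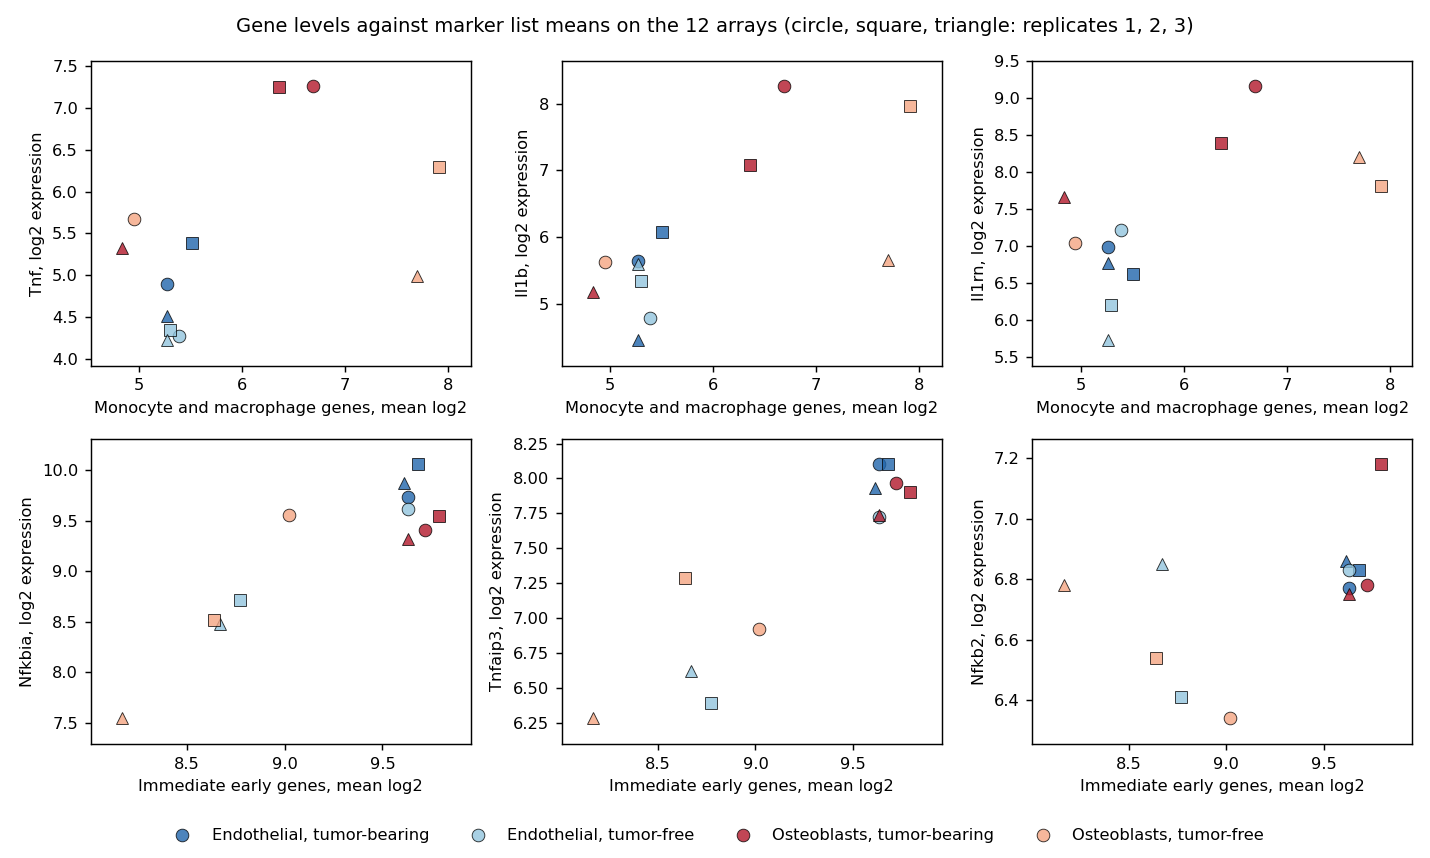
Top, log2 expression of Tnf, Il1b and Il1rn against the mean log2 level of 10 monocyte and macrophage markers; bottom, Nfkbia, Tnfaip3 and Nfkb2 against the mean of 11 immediate early genes, each point 1 of 12 arrays. The highest Tnf values, 7.26 and 7.25, stand at marker means of 6.69 and 6.36, and the tumor-free arrays with 9.02 or less for immediate early genes hold the lowest Tnfaip3 values.

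Tnfrsf1a (probe set 10541895) encodes TNF receptor 1, which carries TNF's signal in most cells. It was measured at 8.75, 9.03 and 8.83 in tumor-bearing endothelial cells and at 9.25, 9.61 and 9.46 in tumor-free ones. The osteoblast levels were 8.02, 7.54 and 7.41 with tumor and 6.44, 8.17 and 8.62 without. All 6 endothelial arrays lay above all 6 osteoblast arrays, and the endothelial groups with and without tumor did not overlap either. Of all genes, 18.8% had endothelial groups with and without tumor that did not overlap. Between the cell types the share was 35.9% with tumor and 47.3% without. The endothelial means of 8.87 ± 0.14 with tumor and 9.44 ± 0.18 without (SD, n = 3 each) differed by -0.57 ± 0.44 (SE; limma adjusted p = 0.95). The osteoblast means of 7.65 ± 0.32 with tumor and 7.74 ± 1.15 without (SD, n = 3 each) differed by -0.09 ± 0.44 (SE; limma adjusted p = 0.918).

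In tumor-free mice Tnfrsf1a was 3.24-fold higher in endothelial cells than in osteoblasts, a log2 difference of 1.70 ± 0.44 (SE; limma adjusted p = 0.0161). In tumor-bearing mice it was 2.33-fold higher by the means, a difference of 1.22 ± 0.44 that did not pass (SE; limma adjusted p = 0.0957). The tumor-free call held in 11 of 12 fits that left out 1 array and ended, at an adjusted p of 0.0551, without endothelial replicate 2. It also ended with only the 2 groups in the fit (limma adjusted p = 0.0824). The low osteoblast array, replicate 1 of tumor-free mice at 6.44, was also the one lowest in osteoblast markers among osteoblast arrays, with a mean of 8.82 against 9.54 to 10.26 on the others. Without the 4 osteoblast arrays high in macrophage markers the differences were 3.00 without tumor and 1.46 with tumor, with 1 osteoblast array in each group. The tumor-free osteoblast array left in that fit was the same low replicate 1, so the 3.00 rests on it. With 1 array left out in turn, the tumor-free difference ran from 1.05 to 2.14.

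Nfkb2 (probe set 10463599) encodes p100, the precursor of the NF-kB subunit p52, which holds other subunits in the cytoplasm until it is processed. Nfkbia (probe set 10400405) encodes IkB-alpha, which captures NF-kB and returns it to the cytoplasm. Tnfaip3 (probe set 10368144) encodes A20, a ubiquitin-editing enzyme that shuts down signaling from the TNF and interleukin-1 receptors. The 300 bases around a transcription start of each, 250 before it and 50 after, are printed because NF-kB is known to bind upstream of feedback genes. The window of Il1b is printed beside them as a window without a match. Sequences are from RefSeq on GRCm38.p6, 5′ to 3′ on the gene's strand, and capitals mark matches to the NF-kB consensus, a 10-base motif searched on both strands with overlaps allowed.
Nfkbia, chr12:55492598-55492897, minus strand: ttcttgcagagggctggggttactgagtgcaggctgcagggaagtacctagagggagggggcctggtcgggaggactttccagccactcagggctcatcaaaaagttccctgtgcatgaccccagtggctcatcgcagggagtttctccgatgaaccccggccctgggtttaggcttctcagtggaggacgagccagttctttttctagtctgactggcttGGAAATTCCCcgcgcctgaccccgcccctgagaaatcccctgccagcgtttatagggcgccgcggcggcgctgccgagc
Tnfaip3, chr10:19015361-19015660, minus strand: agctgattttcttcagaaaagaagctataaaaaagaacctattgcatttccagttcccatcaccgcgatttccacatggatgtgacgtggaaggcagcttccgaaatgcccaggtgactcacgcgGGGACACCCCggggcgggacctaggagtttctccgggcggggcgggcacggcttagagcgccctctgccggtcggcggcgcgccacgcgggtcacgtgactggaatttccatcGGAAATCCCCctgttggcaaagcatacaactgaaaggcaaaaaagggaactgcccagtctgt
Nfkb2, chr19:46304487-46304786, plus strand: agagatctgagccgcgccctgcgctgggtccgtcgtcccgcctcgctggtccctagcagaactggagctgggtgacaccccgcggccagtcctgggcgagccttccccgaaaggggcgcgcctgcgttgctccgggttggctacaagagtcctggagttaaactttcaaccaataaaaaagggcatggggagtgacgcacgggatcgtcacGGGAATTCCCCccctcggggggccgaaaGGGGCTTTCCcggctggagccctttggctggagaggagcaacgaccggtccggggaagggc
Il1b, chr2:129371090-129371389, minus strand: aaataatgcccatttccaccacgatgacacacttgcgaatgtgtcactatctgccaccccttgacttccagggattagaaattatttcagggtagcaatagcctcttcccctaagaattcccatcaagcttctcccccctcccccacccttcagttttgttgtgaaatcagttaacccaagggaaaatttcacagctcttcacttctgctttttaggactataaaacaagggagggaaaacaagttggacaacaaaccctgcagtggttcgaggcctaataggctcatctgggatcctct
The Nfkbia window holds 1 match, GGAAATTCCC, which starts 29 bases upstream of the transcription start. The Tnfaip3 window holds 2, GGGACACCCC and GGAAATCCCC, starting 125 and 12 bases upstream. The Nfkb2 window holds 3, of which GGGAATTCCC and GGAATTCCCC overlap at 39 and 38 bases upstream and GGGGCTTTCC starts 11 bases upstream. No match to these letters lies in the printed Il1b window or in the windows of Tnf, Tnfrsf1a and Il1rn. Counting every window of a gene, 4 of the 8 genes with a window (Il1r1 included, Csf3 and Nfkb1 not) have a match, namely the 3 above and Il1r1. Of their 14 windows 6 have a match, against 8.5% of all 32851 windows. These 6 are not separate sites, since the Nfkb2 windows that start at 46305445 and 46305680 overlap and share GGGACTTTCC. The 8.5% is a share of single windows, and no share per gene was computed. A match is a stretch of letters and not a measured binding site. A window of 300 bases without a match does not show that NF-kB leaves that gene alone, Il1b and Tnf included.

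Tnfaip3 was measured at 8.10, 8.10 and 7.93 in tumor-bearing endothelial cells and at 7.72, 6.39 and 6.62 in tumor-free ones. In osteoblasts it was 7.97, 7.90 and 7.74 with tumor and 6.92, 7.29 and 6.28 without. All 6 arrays of tumor-bearing mice lay above all 6 arrays of tumor-free mice, but narrowly. The lowest array with tumor was at 7.74 and the highest without at 7.72. The share of all genes with such a split over both cell types was not computed. Tumor-bearing arrays kept within a narrow range and tumor-free arrays spread over more than 1 log2 unit.

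For Tnfaip3 the endothelial means were 8.04 ± 0.10 with tumor and 6.91 ± 0.71 without (SD, n = 3 each), a difference of 1.14 ± 0.33, or 2.20-fold, with an unadjusted p of 0.00549 (SE; limma adjusted p = 0.445). The osteoblast means were 7.87 ± 0.12 with tumor and 6.83 ± 0.51 without (SD, n = 3 each), a difference of 1.04 ± 0.33, or 2.05-fold, with an unadjusted p of 0.00937 (SE; limma adjusted p = 0.0931). Groups that do not overlap were found for 18.8% of all genes in endothelial cells and 24.7% in osteoblasts. Tnfaip3 was not called with all 12 arrays, but it passed in both cell types without replicate 1 of endothelial cells of tumor-free mice. The endothelial difference was then 1.54 with a limma adjusted p of 0.039, and the osteoblast difference was 1.04 with a limma adjusted p of 0.0421. Without replicate 1 of both tumor-free groups Tnfaip3 passed in both cell types, at 1.54 in endothelial cells (limma adjusted p = 0.0265) and 1.08 in osteoblasts (limma adjusted p = 0.029). Between the cell types Tnfaip3 differed by 0.17 with tumor and 0.07 without (limma adjusted p = 0.827 and 0.876), less than its error.

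Nfkbia was measured at 9.74, 10.06 and 9.88 in tumor-bearing endothelial cells and at 9.62, 8.72 and 8.48 in tumor-free ones. Osteoblast arrays gave 9.41, 9.55 and 9.32 with tumor and 9.56, 8.52 and 7.54 without. Replicate 1 was the highest of the 3 arrays in both tumor-free groups, below the endothelial arrays with tumor at 9.62 and above the osteoblast arrays with tumor at 9.56.

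For Nfkbia the endothelial means were 9.89 ± 0.16 with tumor and 8.94 ± 0.60 without (SD, n = 3 each). The difference was 0.95 ± 0.43, or 1.93-fold, with an unadjusted p of 0.0494 (SE; limma adjusted p = 0.718). In osteoblasts they were 9.43 ± 0.12 with tumor and 8.54 ± 1.01 without (SD, n = 3 each). That difference was 0.89 ± 0.43, or 1.85-fold (SE; limma adjusted p = 0.23). Nfkbia was not called in osteoblasts with all 12 arrays. It passed in 1 of the 12 fits that left out 1 array. That fit was without replicate 1 of osteoblasts of tumor-free mice, where the difference was 1.40 with a limma adjusted p of 0.0252. Without endothelial replicate 1 of tumor-free mice the endothelial difference was 1.29, the largest of the fits that left out 1 array, and the adjusted p was 0.354 or more in all 12. Array quality weights, which give less weight to arrays that stand apart, gave endothelial differences of 1.04 for Nfkbia (limma adjusted p = 0.0491) and 1.30 for Tnfaip3 (limma adjusted p = 0.0222). With tumor, every endothelial array lay above every osteoblast array for Nfkbia, by 0.47 on the means, with a limma adjusted p of 0.591. Groups that do not overlap were found for 35.9% of all genes in that comparison.

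Nfkb2 varied least. It was measured at 6.77, 6.83 and 6.86 in tumor-bearing endothelial cells and at 6.83, 6.41 and 6.85 in tumor-free ones. The osteoblast levels were 6.78, 7.18 and 6.75 with tumor and 6.34, 6.54 and 6.78 without. All groups overlapped with their neighbors in the order of means. The tumor differences were 0.13 ± 0.18 in endothelial cells (SE; limma adjusted p = 0.999) and 0.35 ± 0.18 in osteoblasts (SE; limma adjusted p = 0.258).

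The 7 arrays highest in Tnfaip3 were also the 7 highest in the mean of 11 immediate early genes, which rise within minutes of stimulation and also when tissue is dissociated. The mean log2 level of those 11 genes was 9.63, 9.68 and 9.61 in tumor-bearing endothelial cells and 9.63, 8.77 and 8.67 in tumor-free ones. In osteoblasts it was 9.72, 9.79 and 9.63 with tumor and 9.02, 8.64 and 8.17 without. So 7 arrays, all 6 with tumor and replicate 1 of endothelial cells without, lay between 9.61 and 9.79, and the other 5, all tumor-free, at 9.02 or lower. Nfkbia departed from this on replicate 1 of osteoblasts of tumor-free mice, which had 9.56 for Nfkbia, above all 3 osteoblast arrays with tumor, and 9.02 for the immediate early genes. On a summed scale the list reached 13.38 to 13.48 in endothelial cells of tumor-bearing mice, 12.47 to 13.45 in tumor-free ones, 13.46 to 13.59 in osteoblasts of tumor-bearing mice and 12.15 to 12.92 in tumor-free ones. Between tumor-bearing and tumor-free mice 0 of 11 passed in endothelial cells, against 0.0241% of all genes tested. An unadjusted limma p under 0.05 was found there for 5 of 11, against 6.93% of all genes, with a median difference of 0.57. In osteoblasts 3 of 11 passed, all higher with tumor, against 4.01% of all genes that were called higher, with a median of 1.11. Their part in the levels of Nfkbia and Tnfaip3 was not tested.

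Over the 12 arrays the genes most like Nfkbia were Klf4, Klf6 and Ccnl1, with Pearson correlations of 0.98, 0.978 and 0.977. Klf4 and Klf6 encode zinc-finger transcription factors, and Ccnl1 a cyclin linked to splicing. The genes most like Tnfaip3 were Nfkbiz, which encodes another IkB-family protein, the chemokine gene Cxcl1 and the mitochondrial carbonic anhydrase gene Car5b, at 0.958, 0.933 and 0.928. Nfkbia and Tnfaip3 correlated at 0.831, and Tnfaip3 ranked 109 of all tested genes for likeness to Nfkbia. The genes most like Il1b were Dock10, Il1a and Pi15, at 0.924, 0.909 and 0.90, and Tnf followed at rank 14 with 0.859. Il1a encodes interleukin-1 alpha, the other ligand of the same receptor. These correlations describe 12 arrays of 4 groups that share their cell type and marker levels.

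Csf3 (probe set 10380999) encodes G-CSF, the cytokine that drives neutrophil production and release and that TNF and interleukin-1 induce in stromal and endothelial cells. It was measured at 6.00, 6.37 and 6.86 in tumor-bearing endothelial cells and at 6.14, 5.16 and 4.94 in tumor-free ones. Osteoblast arrays gave 4.66, 5.31 and 5.32 with tumor and 5.61, 5.08 and 5.31 without. It exceeded the median probe set on 5 arrays, the 3 endothelial arrays with tumor and replicate 1 of both tumor-free groups. It thus passed the filter on low values only through endothelial cells of tumor-bearing mice. Its level in osteoblasts of tumor-bearing mice is not shown to lie above background. The same holds for replicates 2 and 3 of both tumor-free groups, so its tumor difference in endothelial cells is set against values mostly near background.

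Csf3 was higher in endothelial cells than in osteoblasts of tumor-bearing mice, with means of 6.41 ± 0.43 in endothelial cells and 5.09 ± 0.38 in osteoblasts (SD, n = 3 each). The measured means differed by 1.32 ± 0.33 (SE; limma adjusted p = 0.021, and 0.0297 with no filter on low values). The groups did not overlap, as for 35.9% of all genes. In tumor-free mice the means were 5.41 ± 0.64 in endothelial cells and 5.33 ± 0.27 in osteoblasts (SD, n = 3 each), with a difference of 0.08 ± 0.33 (SE; limma adjusted p = 0.871). The tumor difference was 1.00 ± 0.33 in endothelial cells, or 2.00-fold, with an unadjusted p of 0.0124 (SE; limma adjusted p = 0.522). It was -0.24 ± 0.33 in osteoblasts (SE; limma adjusted p = 0.683). The call in tumor-bearing mice held in 9 of 12 fits that left out 1 array. It ended without osteoblast replicate 1 (limma adjusted p = 0.0777), without endothelial replicate 2 (0.0562) and without endothelial replicate 3, where the difference was 1.09 (0.0914). Without the 4 osteoblast arrays high in macrophage markers it was 1.09 with a limma adjusted p of 0.191. Without endothelial replicate 1 of tumor-free mice the endothelial tumor difference was 1.36, with a limma adjusted p of 0.097.

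**Figure D3:**
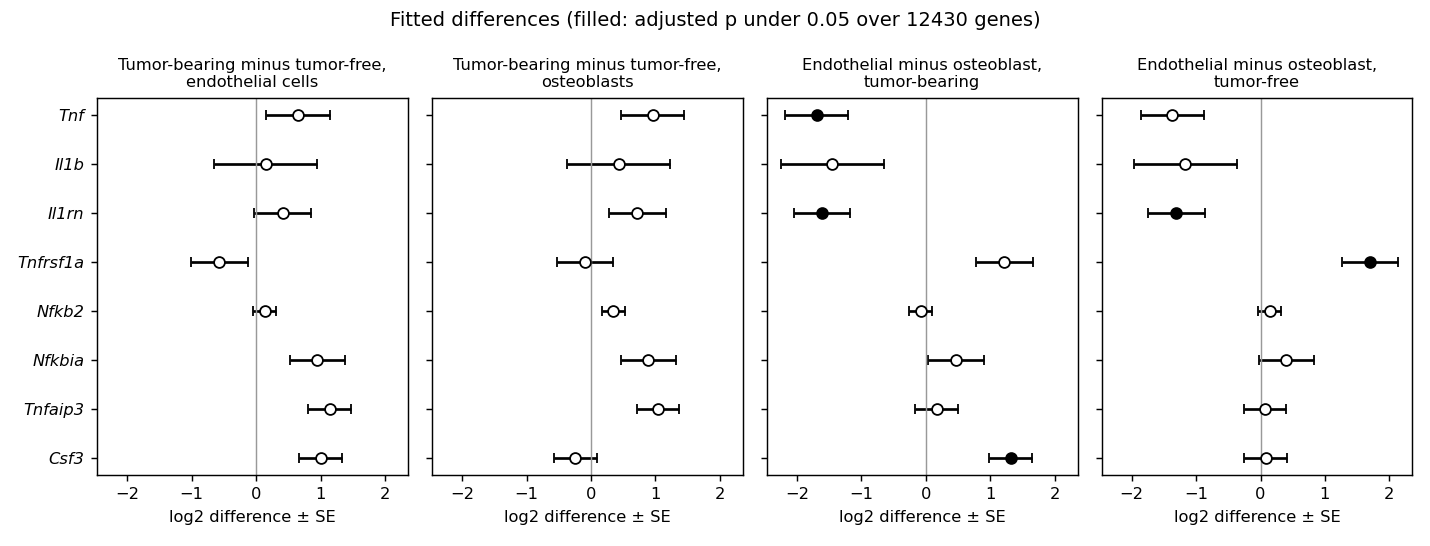
Log2 differences of the 8 genes with their standard errors in 4 comparisons, as each panel's title gives them; filled points passed at an adjusted p under 0.05 over 12430 genes. No point is filled in either tumor comparison, 3 are filled between the cell types with tumor and 2 without.

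Whether the tumor difference itself differed between the cell types was tested in the same fit, as the endothelial minus the osteoblast difference. In limma's test 0 of 8 genes passed, against 0.209% of all genes tested, and 1 of 8 had an unadjusted limma p under 0.05, against 16.0% of all genes. That gene was Csf3, with 1.24 ± 0.47 (SE), an unadjusted p of 0.0238 and a limma adjusted p of 0.244. Csf3 entered the test only through endothelial cells of tumor-bearing mice, where it was high, so that count is a description. For Tnfaip3 and Nfkbia the difference was 0.10 ± 0.47 and 0.06 ± 0.61 (SE), less than its error. For Tnf it was -0.31 ± 0.69, for Il1b -0.28 ± 1.13, for Il1rn -0.31 ± 0.63, for Tnfrsf1a -0.48 ± 0.62 and for Nfkb2 -0.22 ± 0.26 (SE).

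The wider pathway was followed in 6 lists with 83 genes, of which 63 were tested. In endothelial cells 0 of 63 passed in limma's test of the tumor difference, against 0.0241% of all genes tested. An unadjusted p under 0.05 was found for 12 of them, against 6.93% of all genes. In osteoblasts 4 of 63 passed, all higher with tumor, against 4.01% of all genes tested that were higher. The 63 genes had a median log2 difference of 0.15 in endothelial cells and 0.37 in osteoblasts. All 4 calls came from the lists of NF-kB target genes and of G-CSF receptors and partners. Of the 42 tested genes of the receptor, adaptor, kinase and inhibitor lists, 0 passed in either cell type. The shares of all genes called were 0.0241% in endothelial cells and 4.59% in osteoblasts. The called counts are near these shares and are no result about the lists. At an unadjusted p under 0.05 were 3 of the 42 in endothelial cells and 14 in osteoblasts, against 6.93% and 24.4% of all genes.

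Among 19 NF-kB target genes tested, 3 rose and 0 fell in osteoblasts with tumor, with a median of 0.93 and 15 of 19 above 0, against 4.01% of all genes called higher and 49.9% above 0. In the same comparison 11 of 11 immediate early genes lay above 0, 3 of them past the threshold, and their part in the levels of these targets was not tested. Ptgs2, which encodes the prostaglandin-forming enzyme COX-2, was measured at 10.47, 10.56 and 9.30 in osteoblasts of tumor-bearing mice and at 7.0, 8.15 and 6.94 in tumor-free ones. It was 6.71-fold higher with tumor, by 2.75 ± 0.44 on the log2 scale (SE; limma adjusted p = 0.0102). On endothelial arrays Ptgs2 lay between 4.88 and 5.94. It exceeded the median probe set on 1 of 3 endothelial arrays with tumor and 2 of 3 without, so its endothelial level is mostly near background. Gadd45b, a stress-response gene that NF-kB induces, was measured at 10.51, 10.81 and 10.47 in osteoblasts of tumor-bearing mice and at 8.55, 8.83 and 8.22 in tumor-free ones, 4.18-fold higher with tumor (limma adjusted p = 0.00789). Cxcl1, a chemokine that attracts neutrophils, was 2.23-fold higher with tumor, at 9.42, 9.30 and 9.18 against 8.59, 8.33 and 7.51 without (limma adjusted p = 0.0478). The osteoblast groups did not overlap for these 3 genes, named because they had passed, as for 24.7% of all genes.

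Stat3, the transcription factor that G-CSF and interleukin-6 receptors activate, was the other call, 1.74-fold higher with tumor at 8.92, 9.05 and 8.69 against 7.86, 8.23 and 8.16 without (limma adjusted p = 0.0453). Leaving out 1 array in turn kept the call of Gadd45b in 12 of 12 fits and of Ptgs2 in 11 of 12, with an adjusted p of 0.0511 without replicate 2 of osteoblasts of tumor-bearing mice. It kept that of Cxcl1 in 3 of 12, without replicate 1 or 2 of osteoblasts or replicate 1 of endothelial cells of tumor-free mice, and that of Stat3 in 2 of 12, without osteoblast replicate 2 or endothelial replicate 1 of tumor-free mice. Cxcl1 was no longer called with quantile normalization (limma adjusted p = 0.0679), trend with robust estimation (0.0519) or array weights (0.0538), nor Stat3 with those (0.0969, 0.0598 and 0.0658) or with the replicate number as a block (0.0739). Without the 4 osteoblast arrays high in macrophage markers all 4 calls ended, with differences of 1.92 for Gadd45b (limma adjusted p = 0.112), 2.30 for Ptgs2 (0.0716), 0.58 for Cxcl1 (0.481) and 0.83 for Stat3 (0.218), each osteoblast group then holding 1 array. In endothelial cells the same genes had differences of -0.12 for Ptgs2, 1.02 for Gadd45b, 0.76 for Cxcl1 and 0.52 for Stat3, with limma adjusted p of 0.469 or more. With the 6 osteoblast arrays alone in the fit, 0 of 12430 genes passed limma's test and 1820 had an unadjusted p under 0.05, so the 4 calls rest on the spread shared by all 12 arrays. Il6, a target chosen for mention after its values were seen, had the largest difference of the lists in both cell types without passing, 2.61 ± 0.92 in endothelial cells and 3.16 ± 0.92 in osteoblasts (SE; limma adjusted p = 0.573 and 0.0747).

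The other inhibitors of the pathway were not called in either tumor comparison, against 0.0241% of all genes in endothelial cells and 4.59% in osteoblasts. Of 14 tested besides the genes above, 11 lay above 0 in endothelial cells with a median of 0.15, and 12 lay above 0 in osteoblasts with a median of 0.38. The TNF receptor signaling genes had medians of -0.03 in endothelial cells and 0.27 in osteoblasts over 11 tested. The 10 interleukin-1 and Toll adaptor genes tested had medians of 0.14 and 0.04, and the 7 NF-kB subunits and kinases 0.13 and 0.38, in endothelial cells and in osteoblasts.

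**Figure D4:**
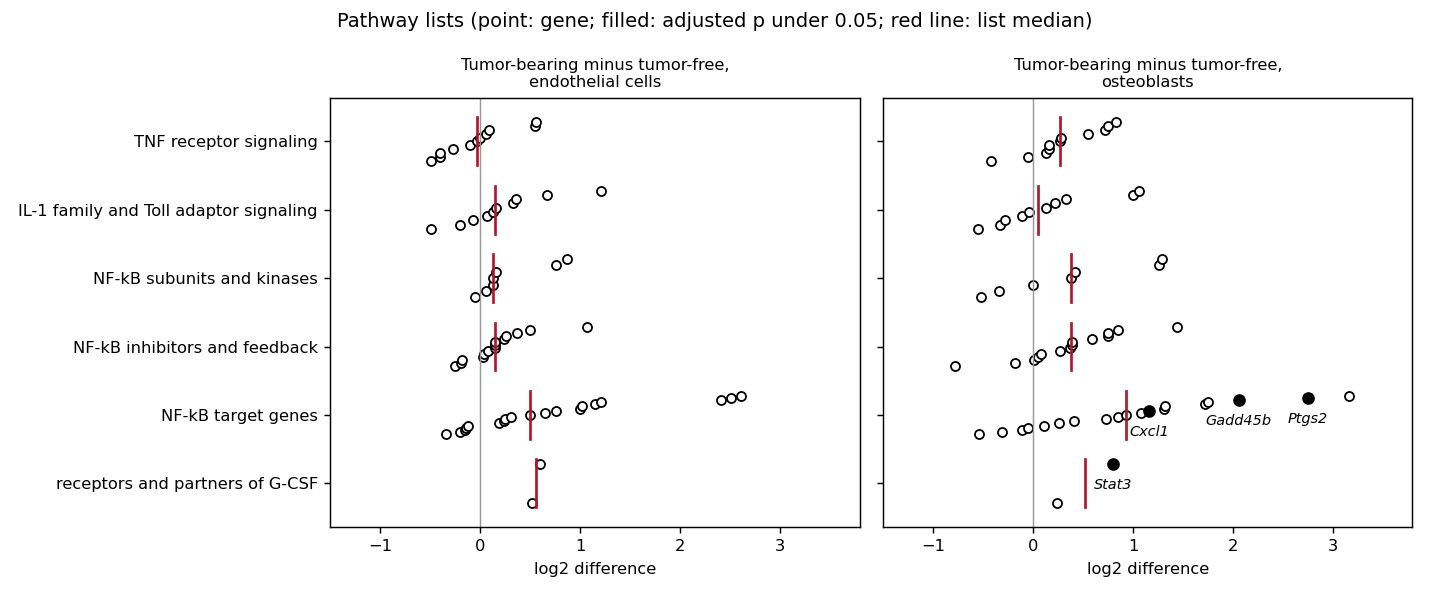
Log2 tumor-bearing minus tumor-free differences of the 63 tested genes of the 6 pathway lists, in endothelial cells (left) and osteoblasts (right); filled points passed at an adjusted p under 0.05 and the red line is the list's median. The filled points are Cxcl1, Gadd45b, Ptgs2 and Stat3, all in osteoblasts.

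Between the cell types, the pathway lists set the 8 genes in context. In tumor-free mice 5 of 63 list genes were higher and 4 lower in endothelial cells, against 18.2% and 12.7% of all genes. Sele, the endothelial adhesion molecule E-selectin, was 18.9-fold higher in endothelial cells, with means of 10.06 ± 0.42 in endothelial cells and 5.82 ± 0.22 in osteoblasts (SD, n = 3 each; limma adjusted p = 3.31e-07). Icam1, an adhesion molecule for leukocytes, was 3.44-fold higher and Bcl2l1, a survival gene, 2.44-fold higher in endothelial cells (limma adjusted p = 0.00679 and 0.00869). Of the TNF receptor list, Fadd, the death-domain adaptor, was 1.96-fold higher and Tab2, a kinase adaptor, 1.40-fold higher in endothelial cells (limma adjusted p = 0.0146 and 0.0448). Tnfrsf1b, which encodes TNF receptor 2, was 1.69-fold lower and Ikbkg, the regulatory subunit of the IkB kinase, 1.43-fold lower in endothelial cells (limma adjusted p = 0.0351 and 0.0343). The Tnfrsf1b call ended with the replicate number as a block (limma adjusted p = 0.0571), median centering (0.0839) and only the 2 groups in the fit (0.0671), and without the 4 osteoblast arrays high in macrophage markers, where the log2 difference was -0.47 (0.0906) against -0.76. In this comparison 4 of 8 monocyte and macrophage markers tested also passed as lower in endothelial cells, against 12.7% of all genes. The part of these markers in the Tnfrsf1b level was not tested. Without those 4 arrays the calls of Icam1 (limma adjusted p = 0.0932), Fadd (0.0931), Tab2 (0.0721) and Ikbkg (0.115) ended too, and those of Sele and Bcl2l1 held. Leaving out replicate 1 of both tumor-free groups ended the call of Bcl2l1 (0.0595), Tab2 (0.167) and Ikbkg (0.143), and having only the 2 groups in the fit ended those of Icam1 (0.0582), Tab2 (0.0888) and Ikbkg (0.109). Quantile normalization and array weights also ended the calls of Tab2 and Ikbkg. Leaving out 1 array in turn kept the calls of Sele, Icam1 and Bcl2l1 in all 12 fits and that of Fadd in 11, ending at 0.0595 without endothelial replicate 3 of tumor-free mice. The Tnfrsf1b call held in 7 and ended without any tumor-free endothelial array, endothelial replicate 1 with tumor or osteoblast replicate 3 without, with adjusted p up to 0.105. That of Ikbkg also held in 7 and ended without replicate 1 or 2 of either tumor-free group or endothelial replicate 1 with tumor, with adjusted p up to 0.119. That of Tab2 held in 3, ending without any endothelial array, osteoblast replicate 3 with tumor or osteoblast replicate 1 or 3 without, with adjusted p up to 0.124. In tumor-bearing mice 5 of 63 list genes were higher and 1 lower in endothelial cells, against 8.13% and 6.79% of all genes. The 1 lower gene was Ptgs2, 27.4-fold lower in endothelial cells (limma adjusted p = 3.3e-05). Its endothelial level with tumor is not shown to lie above background, having exceeded the median probe set on 1 of 3 arrays. A lower endothelial Ptgs2 level was not particular to tumor-bearing mice. In tumor-free mice its means were 5.45 ± 0.51 in endothelial cells and 7.37 ± 0.68 in osteoblasts (SD, n = 3 each). Those groups did not overlap, as for 47.3% of all genes.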

How the data were processed

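RNA extraction used a Pico Pure kit and amplification an Ovation Pico system, per the labels' protocols. The authors deposited log2 values, made with affy per the submitters' processing notes, for 34760 probe sets on 12 arrays. They span 1.55 to 12.9, with array medians of 5.21 to 5.41. The sources used here do not say how affy normalized them or in which version. Precision is limited by the number of arrays. Groups come from the sample titles.

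The array annotation gives 21640 probe sets 1 gene symbol, 1321 several and 11799 none listed. A gene was read from the probe set with the highest mean and tested if it exceeded the median probe set on 3 or more arrays, which kept 12430 of 19937 genes and all 8 genes described. Tests used limma 3.58.1 in R 4.3.3 with 1 mean per group over 12 arrays (8 residual and 2.89 prior degrees of freedom), two-sided, with Benjamini-Hochberg adjustment over all tested genes and a threshold of 0.05. The steps were tested on simulated data. Same-numbered arrays of different groups had correlated deviations of -0.26 to 0.108 over 18 pairs, 1 of them over 0.1, so numbers were not treated as pairs.

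The members, gene lists and tests were chosen with earlier results of these data known. From each pathway list the text names up to 4 genes past the threshold in a tumor comparison and up to 3 in the tumor-free cell type comparison, and for Nfkbia, Tnfaip3 and Il1b the 3 most correlated genes. Nfkbid, Sigirr, Cxcl10 and Lcn2, also past the threshold in a cell type comparison, and others named beyond the rule were chosen after their values were seen. Marker lists served as summed levels, the sum being the log2 of summed linear values. Other settings were a replicate block, quantile normalization, median centering, filters, the mean over probe sets, trend with robust estimation, array weights, only the groups compared, each array left out, tumor-free replicate 1 left out of both cell types, and 4 osteoblast arrays left out, the last chosen after seeing the data.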

Additional observations from a re-analysis of the deposited data

How the results depend on the processing

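Depth of signal over background was not given per probe set, and 3 arrays a group limit every statement. The number of the 8 genes past the threshold moved with the setting. In endothelial cells 0 passed for tumor, but 2 did with array weights and 1 without replicate 1 of both tumor-free groups; leaving out 1 array gave 0 to 1. In osteoblasts 0 passed, but 2 did without replicate 1 of both tumor-free groups, and 0 to 1 with 1 array left out. For the difference between the tumor effects 0 passed with any 1 array left out, and 1 passed, Tnfrsf1a at -1.54 (adjusted p = 0.0391), without the 4 osteoblast arrays high in macrophage markers, which leaves 1 array in each osteoblast group. Between cell types without tumor 2 passed, against 1 with median centering or only the groups compared, 3 with trend and robust estimation and 0 to 3 with 1 array left out. With tumor 3 passed, against 1 with a filter at the 70th percentile or without those 4 osteoblast arrays, 2 with quantile normalization or no filter, 4 with array weights and 0 to 4 with 1 array left out.

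Counts over all genes moved more. For tumor in endothelial cells 3 genes passed, 0 with the replicate block, quantile normalization, median centering, no filter, the 70th percentile filter or trend, 7 with the mean over probe sets, 449 with array weights, 159 without both tumor-free replicates 1 and 0 to 61 with 1 array left out. For tumor in osteoblasts 570 passed, 349 with the replicate block, 955 without a filter, 0 with only the groups compared, 1421 without both tumor-free replicates 1 and 111 to 1573 with 1 array left out. For the difference 26 passed, 0 with the block, 14 with quantile normalization, 96 with median centering, 11 with the 70th percentile filter, 41 with the mean over probe sets, 324 with array weights, 378 without both tumor-free replicates 1, 468 without the 4 osteoblast arrays and 0 to 545 with 1 array left out. Between cell types without tumor 3850 passed, 6564 without a filter, 1911 with only the groups compared and 2266 to 3921 with 1 array left out. With tumor 1854 passed, 3733 with array weights and 1325 to 2376 with 1 array left out. The causes were not tested.

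Directions turned only for differences that had not passed. For tumor in endothelial cells, Il1b was -0.08 without both tumor-free replicates 1, and with 1 array left out Il1b ran from -0.20 to 0.62 and Nfkb2 from -0.02 to 0.20. For tumor in osteoblasts, without the 4 osteoblast arrays Tnf was -0.34, Il1b -0.45, Nfkbia -0.24 and Tnfrsf1a 0.97, and with 1 array left out Tnfrsf1a ran from -0.74 to 0.35 and Il1b from -0.28 to 1.26. For the difference, Tnfrsf1a was 0.08, Il1rn 0.43 and Nfkbia -0.11 without both tumor-free replicates 1, Tnfaip3 -0.00 and Nfkbia -0.04 with median centering, Il1b 0.07, Il1rn 0.10 and Nfkbia -0.03 with array weights, and Tnf 0.99 and Il1b 0.59 without the 4 osteoblast arrays. With 1 array left out it ran from -0.95 to 0.02 for Tnf, -0.92 to 0.17 for Tnfrsf1a, -0.16 to 0.50 for Tnfaip3, -1.11 to 0.43 for Il1b, -0.68 to 0.11 for Il1rn and -0.45 to 0.56 for Nfkbia. Between cell types without tumor, Tnfaip3 was -0.16 and Nfkb2 -0.06 with quantile normalization, Tnfaip3 -0.14 and Csf3 -0.00 with array weights, Tnfaip3 -0.29, Nfkb2 -0.03 and Csf3 -0.15 without both tumor-free replicates 1, and Tnfaip3 -0.01, Nfkbia -0.62 and Csf3 -0.20 without the 4 osteoblast arrays. With 1 array left out Tnfaip3 ran from -0.33 to 0.33, Nfkbia from -0.10 to 0.91 and Csf3 from -0.29 to 0.32. With tumor, Il1b was 0.21 and Nfkb2 0.08 without the 4 osteoblast arrays, and Nfkb2 ran from -0.16 to 0.06 with 1 array left out.

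The replicate block changed no call of the 8 genes for tumor, and ended that of Stat3 in osteoblasts (0.0739); between cell types without tumor it gave Tnf an adjusted p of 0.0196 and Il1rn one of 0.0585. Median centering moved the median difference of all genes to 0.181 between cell types without tumor, against 0.03, and to -0.149 for the difference, against -0.048. It called 2852 genes higher and 785 lower in endothelial cells of tumor-free mice, against 2266 and 1584, and quantile normalization called 368 higher and 184 lower with tumor in osteoblasts, against 499 and 71.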

Other observations

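Several NF-kB-linked genes outside the 8, picked after their values were seen, had higher means with tumor in both cell types without passing limma's test. Nfkbiz, which encodes an inducible IkB protein, averaged 9.80 ± 0.07 with tumor and 8.73 ± 0.88 without in endothelial cells, and 9.75 ± 0.18 with tumor and 8.31 ± 0.58 without in osteoblasts (SD, n = 3 each; limma adjusted p = 0.592 and 0.0624). Ier3, an early response gene, differed by 1.00 ± 0.46 in endothelial cells and by 1.72 ± 0.46 in osteoblasts (SE; limma adjusted p = 0.737 and 0.0598). Rel, the NF-kB subunit c-Rel, differed by 0.76 ± 0.38 in endothelial cells and by 1.29 ± 0.38 in osteoblasts (SE; limma adjusted p = 0.775 and 0.0747). In each case the 3 tumor-bearing arrays of a cell type varied less than its tumor-free arrays.

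Other list genes past the threshold between the cell types included Lcn2, the lipocalin of neutrophils, lower in endothelial cells of tumor-free mice (limma adjusted p = 0.0386). Lcn2 exceeded the median probe set on 4 arrays, all of osteoblasts, so its endothelial level is not shown to lie above background. Its levels in osteoblasts of tumor-free mice were 5.06, 6.75 and 6.98, where the neutrophil marker means were 5.32, 7.12 and 6.75. The part of those markers in the Lcn2 level was not tested. Higher in endothelial cells of tumor-bearing mice were Cxcl10, Nfkbid and Sigirr (limma adjusted p = 0.0462, 0.0319 and 0.0461). Nfkbid exceeded the median probe set on 4 arrays, 3 endothelial with tumor and 1 endothelial without. It thus entered the test only through the cell type where it was high, and its osteoblast level is not shown to lie above background.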
